A study of Mus musculus with 18 samples.

Results

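The genes described here encode 7 proteins with which the endothelium, the inner lining of blood and lymph vessels, displays docking sites to leukocytes, or which endothelial cells carry at their surface, and 1 secreted protein, Cytl1. The 8 genes were Sele, Selp, Ackr1, Vcam1, Icam1, Icam2, Mcam and Cytl1, out of 32285 genes in each count matrix, and all 8 were found by symbol in every matrix. They were chosen from earlier results on these libraries, in which endothelial levels were compared between expanded and control skin, so their differences in that comparison are described here and not tested. Mouse back skin had been dissociated, living cells that excluded the dye DAPI had been sorted, and the 3′ ends of the mRNA of single cells had been sequenced after capture in droplets (10x Genomics). All mice had an operation, in which the skin was opened near the tail and a channel was made beneath it as far as the neck. In the expanded arm a hydrogel expander was then stitched in place near the neck, and in the control arm nothing was inserted, so stretch and the presence of an implant cannot be told apart. Each arm had 5 libraries: day 1 in sequencing rounds 1 and 2, day 2 in rounds 1 and 2, and day 4 in round 1. Every library pooled the mice of 1 arm and 1 round. The strain, sex and age of the mice are not given in the sources used here.

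Leukocytes leave the blood in steps. They first roll on E-selectin (Sele) and P-selectin (Selp), lectins that bind sugars on leukocytes, then respond to chemokines, and then hold fast through integrins that bind ICAM-1 (Icam1), ICAM-2 (Icam2) and VCAM-1 (Vcam1). This takes place mostly in venules, whose endothelium also carries Ackr1, a chemokine receptor that moves chemokines across the cell without signalling. Mcam (CD146) is an adhesion molecule of endothelial cells, pericytes and smooth muscle, and Cytl1 is a small secreted cytokine-like protein.

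On the GRCm38 assembly Sele (ENSMUSG00000026582) lies at chr1:164048234-164057677 on the plus strand and Selp (ENSMUSG00000026580) at chr1:164115264-164150026 on the same strand, with starts 67 kb apart. Ackr1 (ENSMUSG00000037872) lies on the minus strand of the same chromosome at chr1:173331886-173333750. Icam1 (ENSMUSG00000037405, chr9:21015985-21028817) and Mcam (ENSMUSG00000032135, chr9:44134469-44142727) are both on the plus strand of chromosome 9. Cytl1 (ENSMUSG00000062329) is at chr5:37735519-37739820 on the plus strand, Vcam1 (ENSMUSG00000027962) at chr3:116109949-116129688 and Icam2 (ENSMUSG00000001029) at chr11:106377656-106388075, the last 2 on the minus strand. Promoters of 5 members are shown because Sele, Selp, Ackr1 and Cytl1 were lower together in expanded skin while Icam1 differed little. RefSeq (GRCm38.p6) gave the window from 250 bases before to 50 after the start for 6 of the 8 members. Capitals mark letters GGNNNTTCC, the form of many binding sites of the transcription factor NF-kappaB, and TATAAA, both searched on either strand:
Sele, chr1:164047984-164048283, plus strand: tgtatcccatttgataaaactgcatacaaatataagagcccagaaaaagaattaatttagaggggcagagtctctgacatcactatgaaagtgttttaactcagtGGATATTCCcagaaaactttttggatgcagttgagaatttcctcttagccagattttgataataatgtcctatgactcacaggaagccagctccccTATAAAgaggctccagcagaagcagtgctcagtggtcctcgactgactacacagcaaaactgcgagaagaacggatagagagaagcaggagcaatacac
Selp, chr1:164115014-164115313, plus strand: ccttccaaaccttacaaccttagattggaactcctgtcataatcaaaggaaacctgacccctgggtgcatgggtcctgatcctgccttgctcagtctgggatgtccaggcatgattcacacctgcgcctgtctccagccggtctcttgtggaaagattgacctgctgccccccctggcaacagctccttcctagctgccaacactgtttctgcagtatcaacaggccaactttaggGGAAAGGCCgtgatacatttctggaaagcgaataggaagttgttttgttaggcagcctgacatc
Icam1, chr9:21015690-21015989, plus strand: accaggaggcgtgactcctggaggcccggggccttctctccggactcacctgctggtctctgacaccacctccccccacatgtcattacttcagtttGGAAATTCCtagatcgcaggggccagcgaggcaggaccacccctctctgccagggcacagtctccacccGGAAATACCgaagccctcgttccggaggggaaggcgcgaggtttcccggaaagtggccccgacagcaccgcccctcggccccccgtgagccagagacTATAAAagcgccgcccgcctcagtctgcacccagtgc
Ackr1, chr1:173333454-173333753, minus strand: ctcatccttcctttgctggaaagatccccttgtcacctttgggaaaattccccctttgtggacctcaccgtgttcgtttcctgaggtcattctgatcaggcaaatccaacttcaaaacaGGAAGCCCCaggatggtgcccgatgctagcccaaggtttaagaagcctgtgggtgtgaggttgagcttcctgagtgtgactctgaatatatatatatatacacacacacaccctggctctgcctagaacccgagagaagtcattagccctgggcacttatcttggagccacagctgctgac
Cytl1, chr5:37735269-37735568, plus strand: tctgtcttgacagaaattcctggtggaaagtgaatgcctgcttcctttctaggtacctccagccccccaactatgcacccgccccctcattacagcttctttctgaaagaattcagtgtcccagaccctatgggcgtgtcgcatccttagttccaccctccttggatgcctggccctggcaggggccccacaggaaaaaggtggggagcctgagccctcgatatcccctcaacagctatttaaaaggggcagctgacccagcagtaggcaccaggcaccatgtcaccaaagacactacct

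Counted from the 5′ end of each window, Sele held GGNNNTTCC at bases 106 to 114 and TATAAA at bases 202 to 207. Icam1 held the first motif at bases 98 to 106, where it reads the same on both strands, and on the minus strand at bases 167 to 175, with TATAAA at bases 264 to 269. Selp held GGNNNTTCC on the minus strand at bases 237 to 245 and Ackr1 at bases 120 to 128. Ackr1 also held AGATAA, the letters bound by GATA factors, on the minus strand at bases 276 to 281. None of the 3 motifs was in the windows of Cytl1 or Mcam. Among 32851 promoters of the same length, 18.5% held GGNNNTTCC, 13.6% TATAAA and 11.2% AGATAA, so such matches are common.

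The libraries held 2468 to 9115 cell barcodes and 17726739 to 75470722 unique molecular identifiers (UMIs, 1 for each captured mRNA) assigned to genes. Of any 2 libraries, at most 23 barcodes were shared, 0.377% of the smaller. After filters 45551 cells remained, 28581 of control and 16970 of expanded skin. Clusters computed without the 8 genes gave 2649 endothelial-like cells, 51 to 547 in each library, and 1073 lymphatic endothelial-like cells, 28 to 210 in each library. A level below is the UMIs of a gene per 1000000 UMIs (CPM), summed over all cells of a class in a library. In endothelial-like cells the pan-endothelial genes Pecam1 and Cdh5 lay at 1089 to 1669 and 675 to 894 CPM, while the lymphatic genes Prox1 and Lyve1 were at most 11.9 and 23.8 CPM. Lymphatic endothelial-like cells had 368 to 1336 CPM of Prox1.

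Across 17 cell classes with more than 1 library of at least 20 cells, 5 of the 8 genes had their highest mean level in endothelial-like cells, 1 in lymphatic endothelial-like cells, 1 in pericytes and smooth muscle and 1 in muscle. Sele averaged 318 ± 232 CPM (SD, n = 10 libraries) in endothelial-like cells and at most 5.06 CPM elsewhere, apart from T cell-like cells. There 1 expanded library, day 2 round 2, had 185 CPM, and the other 9 had 0 to 4.29 CPM. Selp averaged 560 ± 368 CPM in endothelial-like cells, 47.7 ± 75.7 in lymphatic endothelial-like and 46.5 ± 41.2 in neutrophil-like cells (n = 8), the last 2 differing by less than their spread. Ackr1 averaged 205 ± 114 CPM in endothelial-like, 62.0 ± 34.6 in fibroblast-like and 24 ± 12.2 in mast cell-like cells (n = 8). Each of these steps was larger than the SD of either class, although the ranges overlapped.

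**Figure D1:**
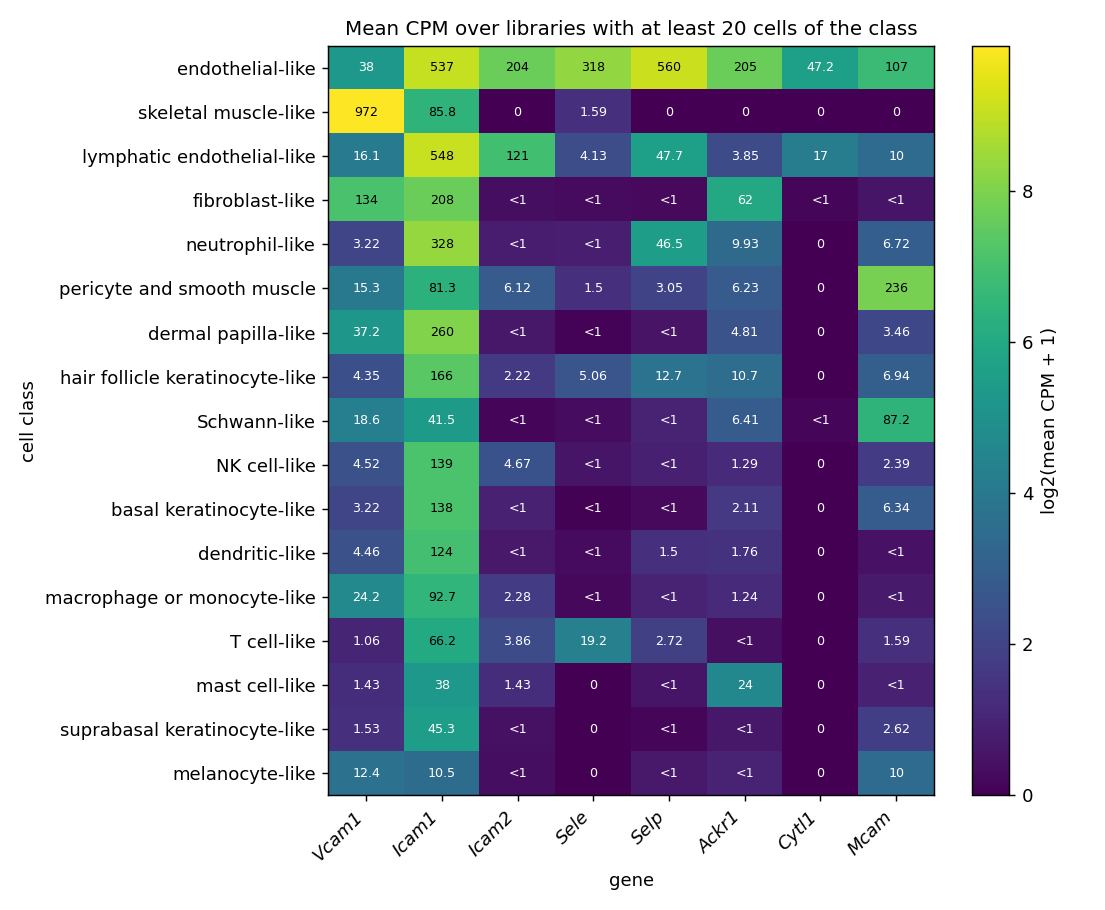
Mean level of each gene (columns) in each cell class (rows) over the libraries with at least 20 cells of that class; the number is the mean CPM and the colour is log2(mean CPM + 1). Cytl1 is at 47.2 CPM in endothelial-like and 17.0 CPM in lymphatic endothelial-like cells and under 1 CPM in the other rows, whereas Icam1 is above 10 CPM in every row.

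Icam2, a constitutive integrin ligand of endothelium, averaged 204 ± 36.1 CPM in endothelial-like and 121 ± 28.2 in lymphatic endothelial-like cells, and the next class, pericytes and smooth muscle, had 6.12 ± 4.92 CPM. Icam1 was spread far more widely. It averaged 548 ± 217 CPM in lymphatic endothelial-like and 537 ± 123 in endothelial-like cells, which differed by less than their spread, then 328 ± 121 in neutrophil-like, 260 ± 110 in dermal papilla-like (n = 7) and 208 ± 45.1 in fibroblast-like cells. Vcam1 was highest outside the vessels. Skeletal muscle-like cells, a cluster led by Myod1, Pax7 and Myf5, genes of muscle stem cells, had 956, 950 and 1010 CPM in the 3 control libraries that held at least 20 of them. Fibroblast-like cells followed with 134 ± 58.2 CPM and endothelial-like cells with 38 ± 28.4, which did not differ from dermal papilla-like cells (37.2 ± 30.1) beyond the spread. Mcam averaged 236 ± 62.5 CPM in pericytes and smooth muscle, 107 ± 62.8 in endothelial-like and 87.2 ± 26.3 in Schwann-like cells (n = 9), the last 2 within their spread. The next class, lymphatic endothelial-like cells, had 10.0 ± 7.89 CPM. Cytl1 averaged 47.2 ± 48.6 CPM in endothelial-like and 17.0 ± 27.5 in lymphatic endothelial-like cells, and no other class passed 0.142 CPM.

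The genes whose mean levels followed each member most closely over 20 classes and endothelial clusters were named by rank of Pearson's r. The measure shares libraries and depth between points and is a description only. Icam2 was closest to the endothelial genes Myct1 (r = 0.981), Tie1 (0.975) and Adgrl4 (0.974). Sele and Selp were each other's closest gene (0.877). Ackr1 was closest to Gpr1 (0.929), Mcam to Sorbs2 (0.919), Cytl1 to Gm14396 (0.969) and Hoxd10 (0.897), Vcam1 to Sulf1 (0.839) and Icam1 to Csf3 (0.816). Over the 10 endothelial-like library sums, Selp and Ackr1 followed each other (0.964), Cytl1 was closest to Dennd4c (0.974) and Mcam to Psmb2 (0.99). These sums span both arms, the comparison on which the members were chosen. Genes that differ between the arms therefore follow each other here, and nothing further is read from these values.

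Endothelial-like cells were divided into 7 clusters, again without the 8 genes. Markers gave 3 of them a name: venular-like (288 control and 64 expanded cells), arterial-like (191 and 120) and capillary-like (342 and 77). Of 4 unnamed clusters, cluster 0 (143 and 625 cells) was led by Lcn2, Ppy and Timp1, cluster 1 (570 and 160 cells) by interferon-induced genes such as Ifit1 and Rsad2, cluster 5 (16 and 29 cells) by cell-cycle genes and cluster 6 (15 and 9 cells) by matrix genes. Ackr1, Sele, Selp and Cytl1 were among the 10 leading genes of the venular-like cluster, although they took no part in forming or naming it. In control skin, venular-like cells held 91.3% of the endothelial Sele UMIs (4765 of 5218), 91.8% of Selp (7742 of 8430), 94.1% of Ackr1 (2872 of 3053), 77.4% of Cytl1 (688 of 889) and 58.3% of Vcam1 (333 of 571). Both selectins and Ackr1 were nearly missing from arterial-like control cells, with 2, 3 and 1 UMIs in 191 cells. Cytl1 and Vcam1 were not: arterial-like control cells had 192 CPM of Cytl1 (166 to 221, exact 95% Poisson interval) and 133 CPM of Vcam1 (112 to 157), against 278 (258 to 300) and 135 (121 to 150) in venular-like cells. Of the 198 arterial-like Cytl1 UMIs, 143 came from day 4, where the level was 368 CPM, and the other 4 libraries had 22.5 to 160 CPM, or 85.7 CPM together. Capillary-like control cells had 1 UMI of Cytl1 in 342 cells. Icam1 and Icam2 were found in every named cluster, with Icam1 at 775, 713 and 463 CPM and Icam2 at 203, 426 and 236 CPM in venular-like, arterial-like and capillary-like control cells. These intervals, and those that follow, cover counting error only.

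In endothelial-like cells as a whole, the 2 selectins, Ackr1, Vcam1 and Cytl1 were lower in expanded skin in all 5 pairs of libraries of the same day and round, and Mcam was higher in all 5. Values are given in the order day 1 round 1, day 1 round 2, day 2 round 1, day 2 round 2 and day 4. Sele was at 260, 582, 522, 371 and 730 CPM in control and 76.5, 89.1, 237, 35.6 and 278 CPM in expanded libraries. The groups overlapped only through the lowest control library, day 1 round 1, and the highest expanded one, day 4. The log2 difference between arms, from edgeR with day as a term, was -1.98 (SE 0.38). Selp was at 847, 1060, 914, 466 and 999 CPM in control and 192, 161, 274, 131 and 558 CPM in expanded libraries, a log2 difference of -1.95 (SE 0.30). Here the expanded day 4 library lay above the control library of day 2 round 2, and the other 4 expanded libraries lay below every control library.

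**Figure D2:**
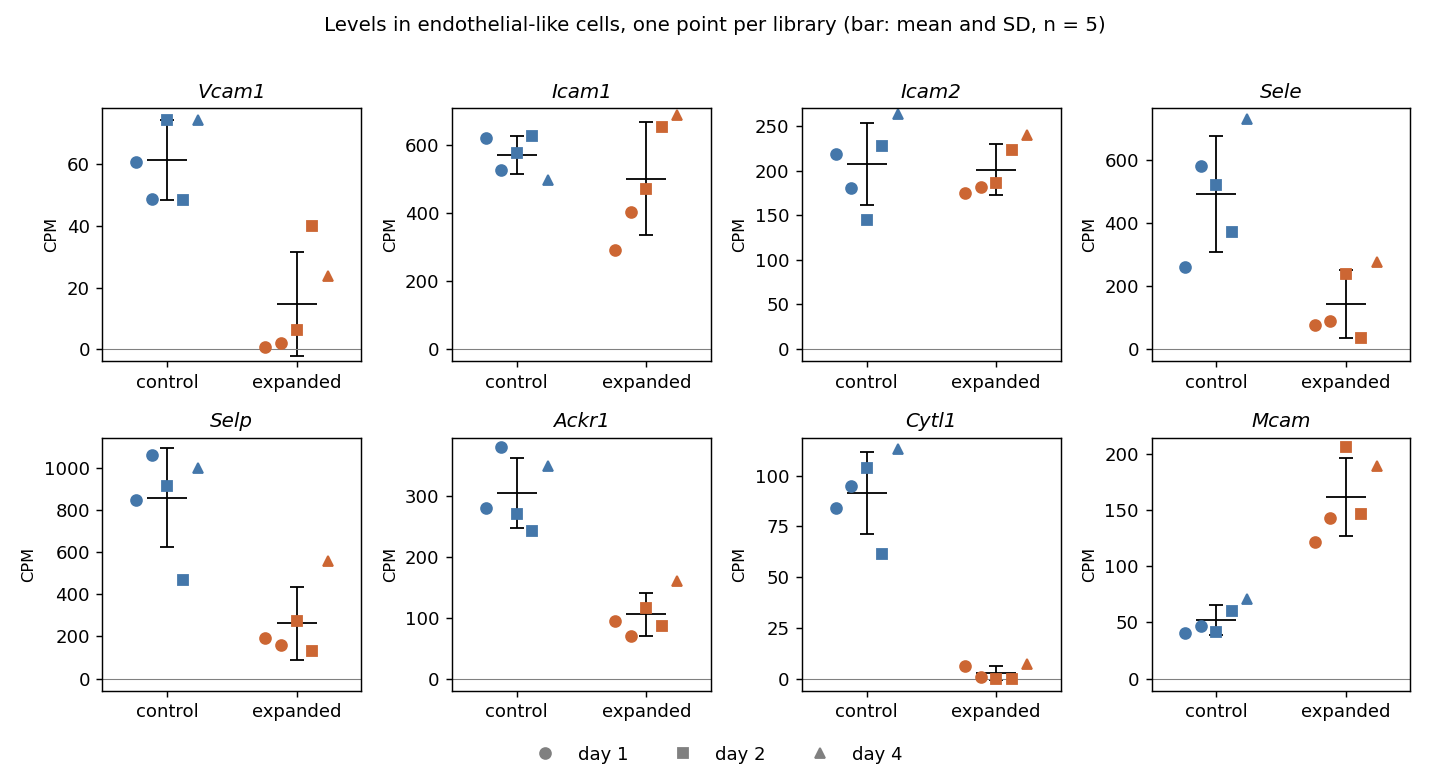
Level in endothelial-like cells (CPM, vertical axis) of each gene in the 5 control and 5 expanded libraries; each point is a library, its shape gives the day, and the cross bar and whiskers are the mean and SD of 5 libraries. The groups do not overlap for Vcam1, Ackr1, Cytl1 and Mcam, overlap for Sele and Selp through single libraries, and overlap throughout for Icam1 and Icam2.

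Ackr1 was at 280, 380, 271, 242 and 349 CPM in control and 94.0, 70.2, 116, 86.8 and 161 CPM in expanded libraries. Every control library was above every expanded one, with a log2 difference of -1.66 (SE 0.19). Cytl1 was at 84.0, 95.2, 104, 61.2 and 113 CPM in control and 6.24, 0.933, 0, 0 and 7.23 CPM in expanded libraries, a log2 difference of -4.86 (SE 0.41) on 889 control and 44 expanded UMIs. The 2 libraries at 0 were those of day 2, with 84 and 51 endothelial-like cells. Vcam1 was at 60.9, 48.9, 74.4, 48.3 and 74.4 CPM in control and 0.78, 2.10, 6.26, 39.9 and 23.8 CPM in expanded libraries, a log2 difference of -2.71 (SE 0.53). Both expanded day 1 libraries were near 0 and the highest expanded library, day 2 round 2, came closest to the controls.

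The 2 ICAM genes did not separate the arms. Icam1 was at 622, 528, 578, 627 and 499 CPM in control and 293, 405, 471, 653 and 689 CPM in expanded libraries (log2 difference -0.34, SE 0.19). It was lower with expansion in 3 of 5 pairs and higher in 2, those of day 2 round 2 and day 4. Icam2 was at 219, 181, 145, 228 and 264 CPM in control and 175, 182, 186, 223 and 240 CPM in expanded libraries (log2 difference -0.15, SE 0.14). Mcam was higher with expansion, with 40.6, 47.0, 41.3, 60.6 and 70.8 CPM in control and 122, 143, 206, 147 and 189 CPM in expanded libraries, a log2 difference of 1.51 (SE 0.14) and no overlap. For scale, 1157 of 9446 genes tested in endothelial-like cells (12.2%) had an adjusted p below 0.05 (edgeR quasi-likelihood test, Benjamini-Hochberg), 5.67% higher and 6.57% lower with expansion, and for 10.8% the arms did not overlap. Since the members were chosen on this comparison, nothing is read from their counts against these shares.

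Several other measures moved with the arm in these sums. Venular-like cells were 17.0% ± 5.87 of endothelial-like cells in control and 6.29% ± 5.99 in expanded libraries (SD, n = 5 each), and unnamed cluster 0 was 9.45% ± 4.78 and 53.7% ± 15.9. Of 10 markers of capillary endothelium tested, 7 were lower and 1 higher with expansion (median log2 difference -1.26), of 10 arterial ones none was called either way (median -0.13), and of 10 venular ones 2 were higher and 2 lower (median -0.17). The summed level of 8 fibroblast markers in endothelial-like cells was 1026 to 4269 CPM in control and 25.6 to 2397 CPM in expanded libraries, with 2 of 7 tested called lower. That of 8 basal keratinocyte markers was 802 to 1059 and 508 to 945 CPM, that of 10 macrophage or monocyte markers 36.3 to 65.5 and 8.54 to 62.6 CPM, and that of 5 erythroid markers 10.8 to 3424 and 1.95 to 24.4 CPM. The 8 neutrophil markers summed to 6.55 to 30.6 CPM in control and 10.5 to 28.9 CPM in expanded libraries, with Ly6g and Mmp9 at 0. The 5 platelet or megakaryocyte markers summed to 15.2 to 30.2 and 12.1 to 44 CPM, with Gp1bb at 0. Without cells that held a UMI of Ptprc, Pdgfra or Krt14, which left 2258 cells, the log2 differences were -4.74 for Cytl1, -2.60 for Vcam1, -2.06 for Sele, -1.98 for Selp, -1.72 for Ackr1 and 1.47 for Mcam.

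Antibody hashtags, which mark all cells of a mouse, assigned 822 of the 2255 endothelial-like cells of the 8 hashed libraries to a mouse. Summed over 7 control and 8 expanded mice with 22 to 98 cells each, the log2 differences were -1.59 for Sele, -1.24 for Selp, -1.10 for Ackr1, -0.93 for Vcam1, 0.25 for Icam1, -0.10 for Icam2 and 1.65 for Mcam. Icam1 thus had the other sign, and Vcam1, Selp and Ackr1 differed by less than in the sums per library. These sums left out both the unassigned cells and the libraries of day 1 round 1, and the parts of these in the change were not tested. Mcam was at 28.0 to 80.1 CPM in control and 102 to 266 CPM in expanded mice, without overlap. The mice of both arms overlapped for the other 7 genes. Cytl1, which was not fitted per mouse because of its low counts, had a median of 12.0 CPM in control mice (0 to 100) and 0.911 CPM in expanded mice (0 to 28.8).

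Within the venular-like cluster itself, control cells had 1927 CPM of Sele (1873 to 1983) and expanded cells 861 (809 to 915). Selp was at 3131 CPM (3062 to 3202) and 1804 (1729 to 1882), and Ackr1 at 1162 (1120 to 1205) and 584 (541 to 628). The 3 genes most typical of venules were therefore 1.74-fold to 2.24-fold lower per UMI in the expanded cells of that cluster. Median depth there was 8090 UMIs in control and 17006 in expanded cells, so a lower level per UMI need not be a lower count per cell. Selp had 7742 UMIs in 288 control and 2173 in 64 expanded cells, Sele 4765 and 1037, and Ackr1 2872 and 703. Vcam1 was 3.46-fold lower, at 135 CPM (121 to 150) in control and 39.0 (28.7 to 51.9) in expanded cells, and Cytl1 33.5-fold lower, at 278 (258 to 300) and 8.30 (3.98 to 15.3). Icam1 and Icam2 differed less, with 775 and 593 CPM and with 203 and 184 CPM. Mcam was 4.45-fold higher, with 24.7 CPM (18.9 to 31.7) in control and 110 (91.7 to 130) in expanded cells. Among venular-like cells assigned to a mouse by hashtag, Vcam1 was not lower with expansion, at 48.4 CPM in control and 53.8 in expanded cells. Of the 64 expanded venular-like cells, 42 came from the day 4 library and the other 4 libraries held 2 to 9 each, so these pooled levels rest largely on 1 library and have no test. In that library Cytl1 was at 9.24 CPM, against 245 CPM in its control partner. When the arms were clustered separately, venular-like cells were 305 control and 98 expanded cells, with 265 and 12.6 CPM of Cytl1, 3050 and 1299 of Selp, and 25.1 and 105 of Mcam.

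**Figure D3:**
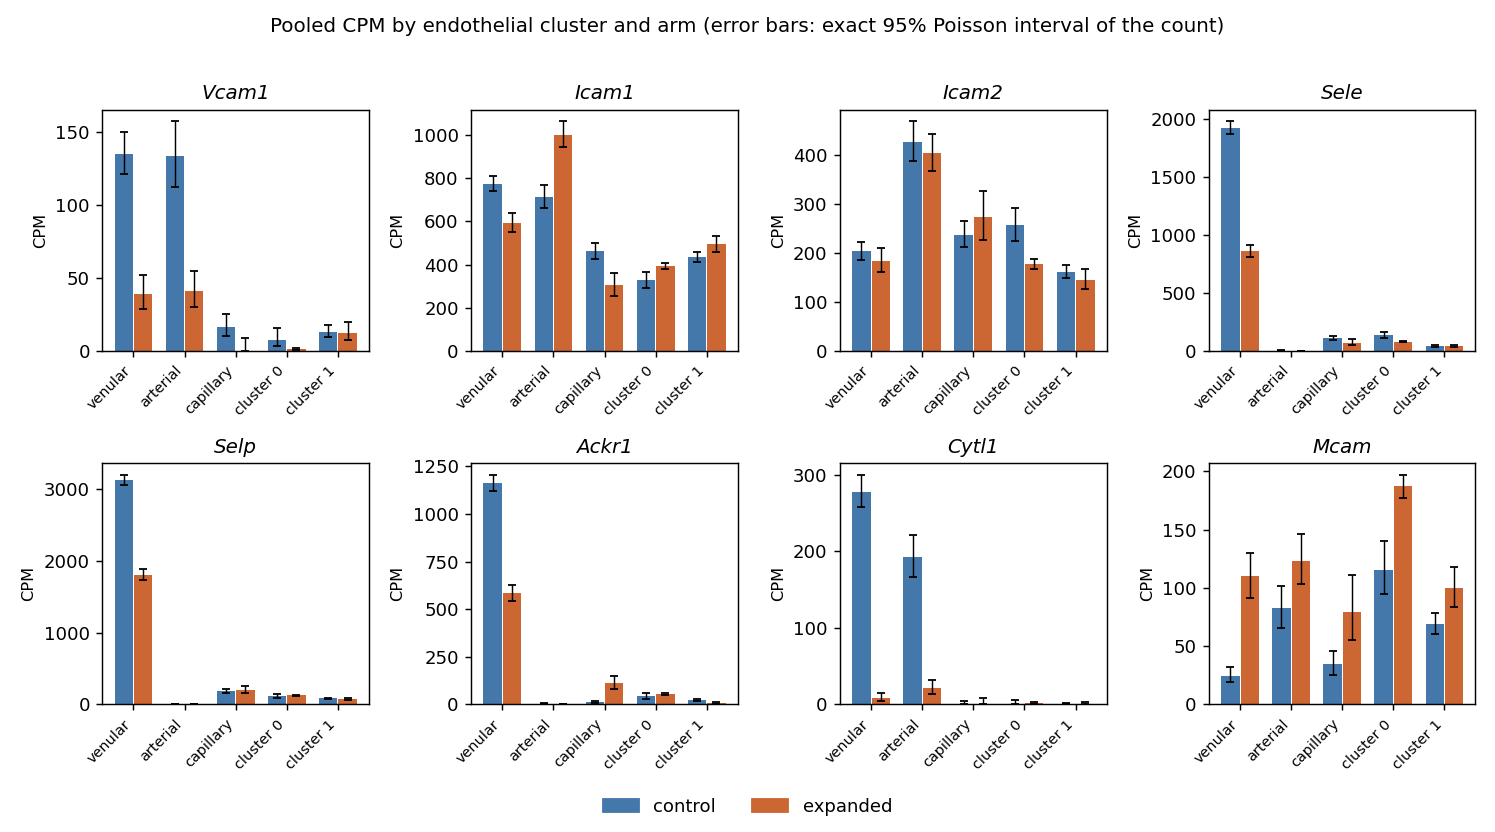
Level of each gene (CPM, vertical axis) in 5 endothelial clusters, pooled over the control and over the expanded libraries; bars start at 0 and error bars are exact 95% Poisson intervals of the UMI count. Sele, Selp and Ackr1 are high in the venular-like cluster and at most 203 CPM in the others, Cytl1 is high in venular-like and arterial-like control cells, and Mcam is higher in expanded cells of all 5 clusters.

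In arterial-like cells Vcam1 was at 133 CPM (112 to 157) in control and 41.0 (29.9 to 54.9) in expanded skin, and Cytl1 at 192 (166 to 221) and 21 (13.3 to 31.5). The expanded Vcam1 level was uneven, with 0 to 5.78 CPM in both day 1 libraries and day 2 round 1, 316 CPM in day 2 round 2 (10 UMIs in 6 cells) and 71.5 CPM in day 4. Pooled Icam1 was at 713 CPM in control and 1002 CPM in expanded arterial-like cells, but 772 of the 1099 expanded UMIs came from day 4 (1674 CPM), and without that library the expanded level was 514 CPM. By pair it was lower with expansion in 3 of 5, those of day 1 round 1 and of day 2. Without the day 4 library of the same arm, Cytl1 was at 85.7 CPM (64.5 to 111) in control and 11 CPM (4.43 to 22.7) in expanded arterial-like cells, and expanded Vcam1 at 18.9 CPM (9.75 to 33). Capillary-like expanded cells were found only when the arms were clustered together, since separate clustering gave 597 capillary-like cells in control and 0 in expanded skin. In the joint cluster Vcam1 had 22 UMIs in control and 0 in expanded cells (exact 95% Poisson upper limit 8.6 CPM). Expanded capillary-like cells had 112 CPM of Ackr1 against 12.7 in control, but 38 of their 48 UMIs were from the day 1 round 1 library, without which the level was 27.9 CPM. Cluster 0, which held 625 of the 1084 expanded endothelial-like cells, had little Vcam1 (7.69 CPM in control and 0.979 in expanded cells) and Cytl1 (1.10 and 1.54). It had 138 and 80.8 CPM of Sele (58.3 CPM in control without day 2 round 2) and 117 and 128 CPM of Selp, and the highest Mcam of the 5 larger clusters (115 and 187 CPM). It held 70.9% of the endothelial Mcam UMIs of expanded skin, 31.4% of those of Ackr1 and 26.5% of those of Selp.

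Cytl1 was concentrated in a few cells. In control skin 68 of 288 venular-like cells had a UMI of it (23.6%, exact 95% binomial interval 18.8 to 28.9, median depth 8090 UMIs), and 44 cells with 6 or more held 628 of the 688 UMIs (91.3%), with up to 42 in 1 cell. All 5 control libraries had cells with at least 1 Cytl1 UMI, 20.2% to 35.7% of venular-like cells. In capillary-like control cells, which had a median depth of 3516 UMIs, 1 of 342 had a UMI (0.292%). Expanded skin had 5 of 64 venular-like cells with a UMI (7.81%, 2.59 to 17.3, median depth 17006 UMIs) and at most 4 in a cell. At an equal depth of 2000 UMIs drawn from each cell, too many for 2 control cells and 1 expanded cell, the shares were 19.9% (57 of 286) and 1.59% (1 of 63). Of 191 arterial-like control cells 28 had a UMI, and 8 cells of 6 or more UMIs held 72.7% of the count. Such cells were found in day 2 round 2 (at most 11 UMIs) and day 4 (at most 33), while both day 1 libraries and day 2 round 1 had at most 5, 2 and 4 UMIs in a cell. In expanded skin 7 of 120 arterial-like cells had a UMI, and 1 cell with 12 held 52.2% of the 23 UMIs. Of the 625 expanded cells of cluster 0, 1 cell held all 11 Cytl1 UMIs. Control venular-like cells with a Cytl1 UMI also had more Vcam1 than those without (321 against 80.0 CPM), and more Sele (2597 against 1731), Selp (3815 against 2931) and Icam1 (992 against 711), at similar median depths of 7578 and 8300 UMIs.

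**Figure D4:**
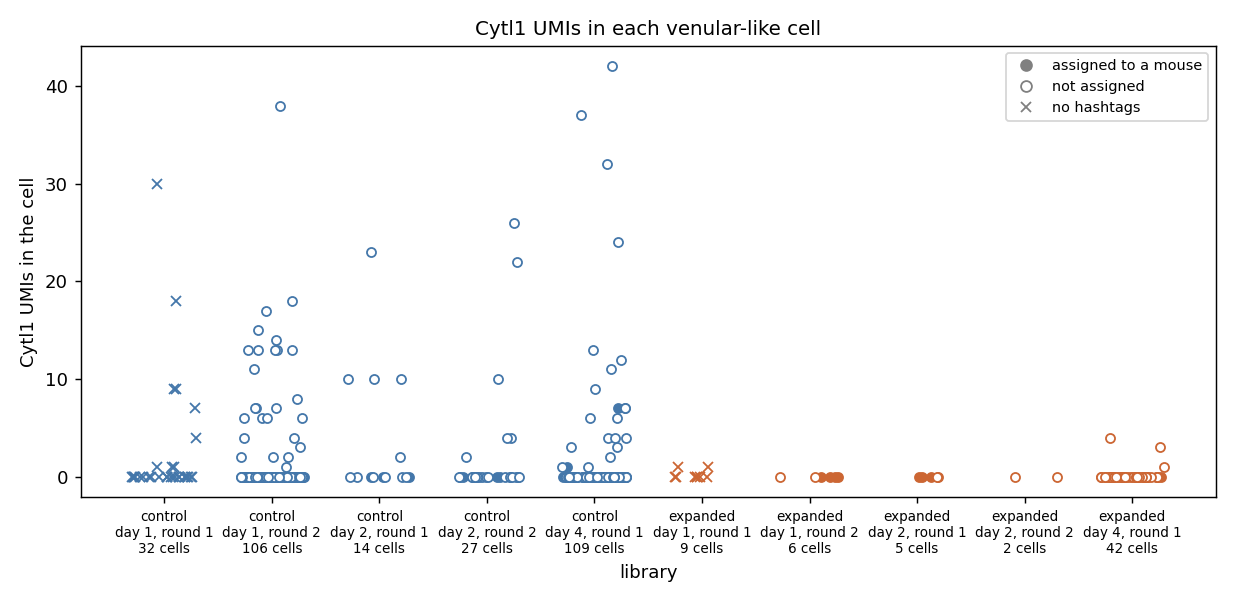
Cytl1 UMIs (vertical axis) in each venular-like cell of the 10 libraries (horizontal axis, control left, expanded right); filled circles are cells assigned to a mouse by hashtag, open circles cells not assigned, and crosses cells of libraries without hashtags. Cells with more than 4 UMIs occur in all 5 control libraries and in none of the expanded ones, and in the 4 control libraries with hashtags the positive cells are mostly open circles.

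The Cytl1 cells of the venular-like cluster were rarely assigned to a mouse. In the 4 hashed control libraries, 59 assigned venular-like cells held 8 Cytl1 UMIs (13.4 CPM, 5.77 to 26.3) and 197 cells that were not assigned held 600 (379 CPM, 349 to 411). Vcam1 differed in the same direction (48.4 and 165 CPM), whereas Selp did not to that extent (2954 and 3234 CPM). In arterial-like control cells the order of Cytl1 was the opposite, 345 CPM in 30 assigned and 160 CPM in 146 unassigned cells. Median hashtag counts were lower in Cytl1-positive than in negative venular-like cells in each of the 4 libraries (19 and 27, 24 and 30, 40 and 52, 43.5 and 83). The part of hashtag labelling in the values per mouse was not tested. Expanded venular-like cells had 0 Cytl1 UMIs in 30 assigned cells and 8 UMIs in 25 cells that were not assigned. All 8 UMIs of the assigned control cells came from the day 4 library, and 3 of the 4 libraries had none. A difference in Cytl1 between arms was thus not detectable among assigned venular-like cells. Vcam1 in assigned venular-like cells was at 48.4 CPM (32.4 to 69.5) in control and 53.8 (37.3 to 75.2) in expanded skin. In those not assigned it was at 165 (145 to 186) and 30.2 (16.1 to 51.7).

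By day, no member passed the threshold in endothelial-like cells. Between day 1 and day 2, edgeR called 0 of 11242 genes in control skin (0%), with 454 at an unadjusted p below 0.05 and 1 called by DESeq2. It called 5 in expanded skin (0.0445%), with 1015 at an unadjusted p below 0.05. For the difference between these changes it called 0 (0%), with 606 at an unadjusted p below 0.05 and 13 called by DESeq2. With the sequencing round as a replicate block the counts were 1, 19 and 3. Vcam1 had the largest change with time among members that had UMIs in each expanded library. Its 2 expanded day 1 libraries were at 0.78 and 2.10 CPM and the day 2 ones at 6.26 and 39.9 CPM. These levels rest on few counts, 2 and 9 UMIs on day 1 and 7 and 28 UMIs on day 2. The log2 change was 3.74 (SE 0.78, adjusted p = 0.171, edgeR). DESeq2 gave an adjusted p of 7.75e-05, edgeR without a low-count filter 1.38e-11, edgeR after thinning 0.03 and edgeR without the expanded day 2 round 1 library 0.0121. For the difference between the arms' changes, 3.63 (SE 0.91), the adjusted p was 0.577 with edgeR and 0.0253 with DESeq2. Icam1 was at 293 and 405 CPM on day 1, 471 and 653 on day 2 and 689 on day 4 in expanded skin (day 2 against day 1, log2 change 0.78, adjusted p = 0.337, edgeR). The other 6 members had adjusted p-values of 0.542 to 1 in the day 1 to day 2 contrasts of either arm by edgeR. Day 4 had 1 library in each arm and round 1 alone, so it has no contrast of its own.

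Outside the blood endothelium the comparison of arms was tested, in classes with at least 4 libraries of 20 cells in each arm. In fibroblast-like cells 3 members passed the low-count filter and all 3 fell with expansion, where 36.1% of 11998 genes changed. Vcam1 was at 150, 125, 154, 138 and 248 CPM in control and 37.2, 61.2, 131, 121 and 176 CPM in expanded libraries (log2 fold change -1.0, SE 0.25, adjusted p = 0.00965, edgeR). It was lower in 5 of 5 pairs, most on day 1, and the groups overlapped. Icam1 was at 257, 282, 213, 196 and 221 CPM in control and 218, 202, 145, 131 and 214 CPM in expanded libraries (-0.60, SE 0.11, adjusted p = 0.00194, edgeR), lower in 5 of 5 pairs and again overlapping. Ackr1 was at 85.4, 115, 67.5, 40.6 and 47.6 CPM in control and 93.2, 98.1, 36.2, 17.1 and 19.8 CPM in expanded libraries (-0.83, SE 0.25, adjusted p = 0.0209, edgeR). It was lower in 4 of 5 pairs. By edgeR the call was lost without the control library of day 2 round 1 (adjusted p = 0.0524), the control library of day 4 (adjusted p = 0.0776) or the expanded library of day 4 (adjusted p = 0.0801).

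The fibroblast-like class changed its make-up with the arm. Its largest cluster was cluster 0 in control (56.0% of the class, led by collagen genes among others) and cluster 13 in expanded skin (38.9%, led by Cxcl5, Tnc and Timp1 among others). Vcam1 was lower in expanded than in control cells of clusters 0 (141 CPM in control and 38.1 in expanded cells), 5 (143 and 46.7) and 13 (424 and 63). The gap was smaller in cluster 18 (201 and 177). Cluster 19 was nearly alike in both arms (157 and 155 CPM, the latter from 106 UMIs in 34 cells). These pooled levels have no test. Icam1 was lower in 4 clusters, such as 0 (259 and 231 CPM) and 13 (308 and 247), and higher in cluster 18 (103 and 126). Ackr1, although lower in the class, was higher in expanded cells of clusters 0 (84.9 and 88.7 CPM), 5 (70.4 and 88.3) and 18 (51 and 79.4). It was lower in clusters 13 (58.6 and 48.6) and 19 (56.9 and 24.8), the last with 34 expanded cells.

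**Figure D5:**
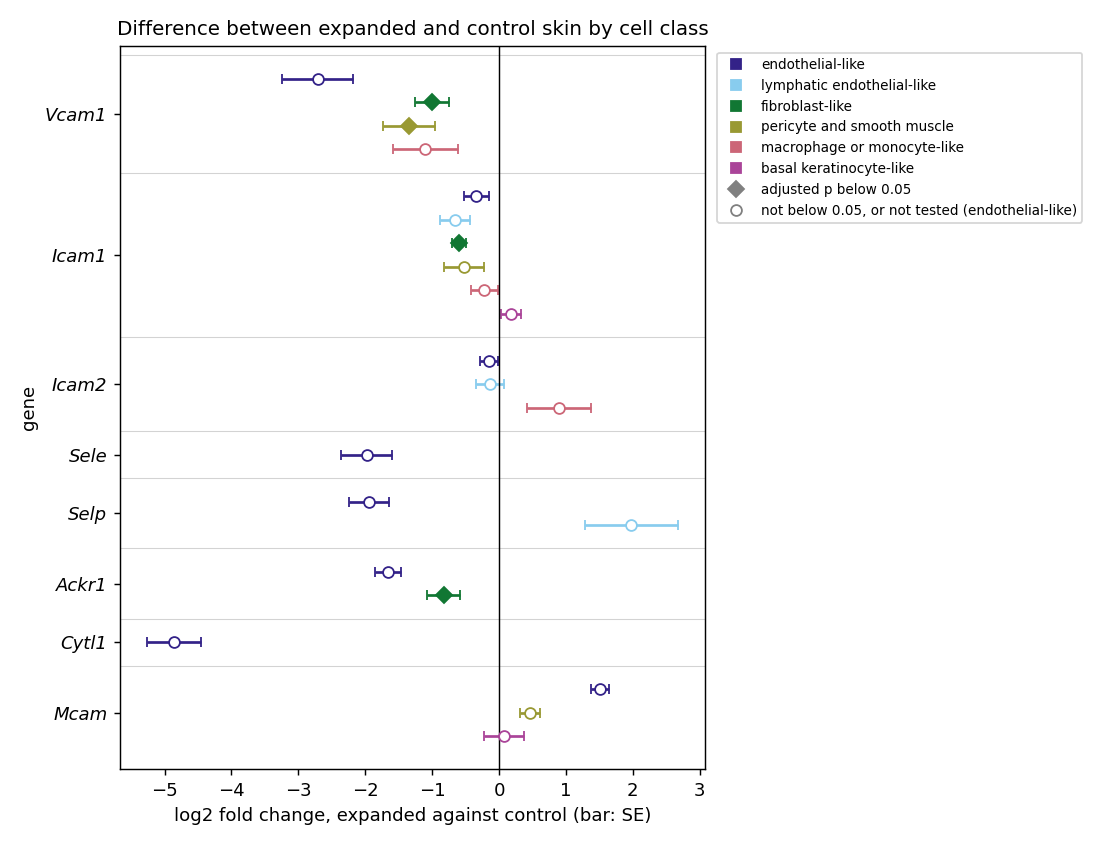
Log2 fold change of expanded against control skin (horizontal axis; bars are the SE) for each gene in each of 6 cell classes (colours) in which it passed the low-count filter. Filled diamonds had an adjusted p below 0.05, open circles did not or, in endothelial-like cells, were not tested; the 4 diamonds are Vcam1 in 2 classes, Icam1 and Ackr1, all left of 0.

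In pericytes and smooth muscle, 3 members were tested and 1344 of 7191 genes (18.7%) changed. Vcam1 was at 19.3, 35.8, 10.8, 13.1 and 27.3 CPM in control and 11.2, 8.75, 5.55, 16.3 and 5.06 CPM in expanded libraries and fell (log2 fold change -1.35, SE 0.39, adjusted p = 0.0294, edgeR). By edgeR this call was lost when single expanded libraries were left out, with adjusted p = 0.0635 and 0.0689 without the day 1 libraries, 0.0679 without day 2 round 1 and 0.151 without day 4. Mcam, a defining gene of these cells, was at 177, 191, 240, 157 and 188 CPM in control and 345, 294, 216, 246 and 309 CPM in expanded libraries. Its log2 difference of 0.46 (SE 0.15) had an adjusted p of 0.0509 by edgeR, of 0.0472 with the replicate block and of 0.0423 by DESeq2, and only day 2 round 1 went the other way. Icam1 had a log2 difference of -0.53 (SE 0.30, adjusted p = 0.234, edgeR).

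In macrophage or monocyte-like cells 25.3% of 9782 genes changed, and none of the 3 members tested passed. Vcam1, which some tissue macrophages carry, was at 36.4, 68.8, 12.6, 10.9 and 38.3 CPM in control and 35.0, 6.44, 12.9, 2.09 and 18.5 CPM in expanded libraries. Its log2 difference of -1.10 (SE 0.49) had an adjusted p of 0.118 by edgeR, and -1.33 with the replicate block 0.0489. The class was mostly cluster 6 in control (81.1%, led by C1qa, C1qb and Folr2 among others) and cluster 2 in expanded skin (93.6%, led by Chil3, Arg1 and Ly6c2 among others), and Vcam1 was at 37.3 and 27.7 CPM within cluster 6 and 20.1 and 12.3 CPM within cluster 2. Icam2 rested on few UMIs, with 0 to 14 in a control and 6 to 41 in an expanded library. It was at 0 to 2.72 CPM in control and 2.81 to 3.71 CPM in expanded libraries (log2 difference 0.90, SE 0.48, adjusted p = 0.192, edgeR). Basal keratinocyte-like cells had 135 of 9545 genes called (1.41%, and 247 genes with the replicate block), with Icam1 and Mcam not among them (adjusted p = 0.536 and 0.981, edgeR).

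In lymphatic endothelial-like cells 3 members passed the low-count filter, and 12.1% of 6384 genes changed. Selp was at 13.3, 12.6, 9.55, 4.56 and 39.9 CPM in control and 3.50, 20.6, 253, 43.0 and 77.1 CPM in expanded libraries, higher in 4 of 5 pairs, with the highest value, 143 UMIs, from 60 cells of day 2 round 1. The log2 difference was 1.98 (SE 0.70), with an adjusted p of 0.0715 by edgeR and, at 1.51, of 0.0249 with the replicate block. Icam1 was at 682, 926, 745, 404 and 508 CPM in control and 383, 774, 383, 396 and 281 CPM in expanded libraries, lower in 5 of 5 pairs (-0.66, SE 0.22, adjusted p = 0.0614, edgeR, and -0.67 with 0.0152 with the replicate block). Icam2 differed by -0.13 (SE 0.21, adjusted p = 0.752, edgeR). Cytl1 did not pass the low-count filter, but its values were 34.5, 73.5, 0, 4.56 and 55.5 CPM in control and 0, 0.938, 0, 1.16 and 0 CPM in expanded libraries.

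Other genes of leukocyte docking were read from a list of 43 on the endothelial side, of which 41 were tested in endothelial-like cells. None rose and 12 fell with expansion (29.3%). Of all genes 6.57% fell and 12.2% changed either way. The median log2 fold change was -0.37 on the list and 0.02 over all genes. This list and the leukocyte-side list below were chosen with earlier results of these data known. Nothing is therefore read from their shares and medians against those of all genes. Of 12 targets and regulators of NF-kappaB and cytokine signalling, 7 fell (median -0.83). Irf1, an interferon-response factor, went from 494 ± 58.0 to 261 ± 50.4 CPM (SD, n = 5 libraries; log2 fold change -1.03, SE 0.14, adjusted p = 0.00184, edgeR) and lay lower in every expanded library. Nfkbia, the inhibitor that NF-kappaB induces, went from 3516 ± 321 to 2474 ± 694 CPM (-0.65, adjusted p = 0.00922, edgeR), and the neutrophil chemokine Cxcl1 from 489 ± 97.9 to 200 ± 144 CPM (-1.48, adjusted p = 0.0353, edgeR). Il6, Birc3, Nfkb2 and Cx3cl1 fell by 0.68 to 0.95 on the log2 scale. Of 9 cytokine receptors, Il6st, the shared receptor chain of the IL-6 family, fell by 0.83 and Il1rap by 1.21, and of 10 junction proteins used in passage between cells, Jam2 fell by 0.57 and Pvr by 0.64. Hs3st1, a heparan sulfate enzyme, fell by 1.66, and neither the 3 sialomucins nor the 3 actin linkers of the docking structure had a called member. In sums per mouse 6 of the list were called in place of 12.

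In lymphatic endothelial-like cells 35 of the same list were tested and 7 were called (20%, against 12.1% of all genes in that class). The cytokine receptor Il4ra, the sialomucin Emcn and the chemokine scavenger Ackr2 rose, by 1.02, 1.02 and 0.94 on the log2 scale. Cd34, Tnfaip3, Irf1 and Il6 fell by 2.13, 0.98, 1.38 and 2.92.

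On the leukocyte side, 17 of 18 listed partners were tested in macrophage or monocyte-like cells, where 12.2% of genes rose and 13.1% fell. In this class 4 of them rose and 2 fell (35.3%, median log2 fold change 0.14 against 0.03 over all genes). The integrin chain Itgb7, which pairs with Itga4 to bind VCAM-1, rose from 16.5 ± 7.44 to 81.2 ± 40.9 CPM (log2 fold change 2.21, SE 0.40, adjusted p = 0.00464, edgeR). Itga4 itself was not called (-0.34, SE 0.25, adjusted p = 0.338, edgeR). It was 1 of 5 integrin chains not called among 8 tested. Itgam, a chain of the integrin Mac-1 that binds ICAM-1, rose by 1.11 and Ccr2, a receptor reported for Cytl1, by 1.99 on the log2 scale. Itga9, also a VCAM-1 integrin chain, and Gcnt1, an enzyme that builds selectin ligands, fell by 1.44 and 0.75. The change from cluster 6 to cluster 2 within this class, given above with Vcam1, moved with these values, and its part in them was not tested.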

How the data were processed

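Gene counts were deposited as 10 matrices of whole-number UMI counts, made with Cell Ranger 6.1.2 against mm10, per the submitters' processing notes. In 8 of the matrices further rows, deposited by the authors, hold hashtag antibody counts, and the matching hashtag samples hold lists of the antibodies used. None of the counts was normalized. The members and the gene lists were chosen with earlier results of these data known. For day 1 round 2 control, titles of the mRNA and hashtag samples disagreed with the library type, which was followed.

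Barcodes with fewer than 200 genes or 500 UMIs, or with over 10% of UMIs from mitochondrial genes, were dropped, and doublets were removed with Scrublet and with HTODemux (Seurat 5.3.0), 1.46% to 5.08% of cells per library. Clusters came from scanpy 1.11.5 (2000 variable genes without the members, 30 components, 15 neighbours, Leiden resolution 1, and 0.3 within the endothelium) and were named only from at least 3 detected markers of a fixed list. Of 38 clusters 13 stayed unnamed, with 11518 cells. Pericytes and smooth muscle fell into 1 cluster and were tested together. Suprabasal keratinocytes had too few libraries to be fitted, and the lymphatic test was added after the design was fixed.

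For each cell class, the UMI counts of its cells were added up within a library (at least 20 cells) and tested with edgeR 4.0.16 (TMM scaling, low-count filter, quasi-likelihood, day and arm as terms), with Benjamini-Hochberg adjustment over all genes at 0.05. The spread is between pools of mice. The scripts were tested on simulated data. Replicate numbers in the labels are sequencing rounds, which same-day libraries of both arms share. Deviations of same-round libraries correlated at 0.123 on day 1 and 0.154 on day 2 across genes. Alternatives were DESeq2 1.42.0, its size factors, no filter, the replicate block, thinning to 2000 UMIs, sums per mouse, removal of cells with UMIs of other types and leaving out each library. Clustering the arms separately and leaving single libraries out of the pooled endothelial cluster levels were chosen after seeing the data. Named genes were all members, the called genes of the lists, Itga4 as the partner of Itgb7 and, for each member, the genes of highest correlation of log2(CPM + 1). The values of 1 called gene of the leukocyte-side list are not reported here.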

Additional observations from a re-analysis of the deposited data

Results flagged for a closer look

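Within a group of 5 libraries, 3 of 44 groups of member values had 1 library far from the others, where chance alone gives about 1 in 20. Vcam1 in fibroblast-like cells was at 248 CPM in the control library of day 4, and the nearest control library was at 154 CPM. Icam1 in lymphatic endothelial-like cells was at 774 CPM in the expanded library of day 1 round 2, with the nearest expanded one at 396 CPM. Selp in lymphatic endothelial-like cells was at 39.9 CPM in the control library of day 4, with the nearest control one at 13.3 CPM.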

How the results depend on the processing

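The direction of the 6 endothelial differences between arms, for Cytl1 (log2 -5.46 to -4.06), Vcam1 (-3.29 to -0.93), Sele (-2.50 to -1.59), Selp (-2.23 to -1.24), Ackr1 (-1.84 to -1.10) and Mcam (1.37 to 1.66), was kept under each alternative that gave a value. Icam1 ranged from -0.54 to 0.25.

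Counts of genes moved far more, and the cause was not tested. In endothelial-like cells 1157 genes became 1815 without a filter, 359 after thinning, 735 in sums per mouse and 640 to 1177 with 1 library left out. Thinning gave 2011 genes in fibroblast-like cells, 507 in pericytes and smooth muscle, 1448 in macrophage or monocyte-like and 218 in lymphatic endothelial-like cells. Leaving out 1 library gave 3368 to 4194, 600 to 1288, 1275 to 2865 and 211 to 766 genes in these classes. The lowest counts came from leaving out day 4: its control library for macrophage or monocyte-like cells, its expanded library for pericytes and smooth muscle and for lymphatic endothelial-like cells. Basal keratinocyte-like cells had 414 genes with DESeq2, 829 without a filter, 247 with the replicate block, 29 after thinning and 25 to 223 with 1 library left out.

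Between day 1 and day 2 in control skin, DESeq2 gave 1 gene, no filter 60, the replicate block 1, thinning 2 and leaving out 1 library 0 to 9. In expanded skin these were 32, 306, 19, 11 and 2 to 17 genes. For the difference between these changes they were 13, 138, 3 and, with 1 library left out, 0 to 17 genes. The endothelial-side list had 6 called genes in sums per mouse and 9 to 13 with 1 library left out, and the leukocyte-side list 6 to 7.

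Some uncalled member values changed sign. Mcam in basal keratinocyte-like cells was -0.00 with the replicate block and -0.07 to 0.28 with 1 library left out, and Icam2 in lymphatic endothelial-like cells -0.28 to 0.05. From day 1 to day 2 in control skin, Sele was -0.01 with the replicate block, -0.24 after thinning and -0.37 to 0.77 with 1 library left out. Vcam1 was -0.08 after thinning and -0.23 to 0.53 with 1 library left out, and Icam1 -0.00 and -0.07 to 0.19. With 1 library left out, Selp was -1.10 to 0.01, Cytl1 -0.62 to 0.28, Mcam -0.03 to 0.39 and Icam2 -0.38 to 0.13. In expanded skin Sele was -1.17 to 1.65 and Selp -0.38 to 0.78, and the difference between arms was -1.25 to 1.57 for Sele and -0.03 to 0.56 for Mcam. Beyond the values given with the results, the replicate block changed no other call among the members.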
